A study of Mus musculus with 3 samples.

Results

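S100 proteins are small calcium-binding proteins with a pair of EF-hand motifs, and the genes described here are the 9 listed members S100a1, S100a3, S100a4, S100a6, S100a8, S100a9, S100a10, S100a11 and S100a13. They were chosen by gene symbol from a list and make up 9 of the 55418 gene symbols quantified in the series. All 9 symbols were matched in the tables of the 3 libraries. Total RNA of primary macrophages of C57BL/6J mice was taken from the cytosol, freed of ribosomal RNA and sequenced. The macrophages had been grown from bone marrow and given 100 ng/ml lipid A, the part of bacterial endotoxin that activates TLR4, for 90 min. The series holds 1 group of 3 libraries, each made from 1 µg of RNA, with no untreated cells, no other time and no nuclear fraction, so levels are described within this single condition. The labels number the libraries as biological replicates 1, 2 and 3 and give them the same donor identifier, and the age and sex of the animals are labelled as not collected. Tests on 3 libraries of this kind measure only the spread between them, which may be technical in part. In bulk RNA, fewer cells of a type and less RNA per cell cannot be told apart.

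Most S100 proteins work as dimers that change shape when calcium binds and then hold on to partner proteins, such as annexins, myosin heavy chain or calcyclin-binding protein. S100a8 and S100a9 form calprotectin, an abundant protein of neutrophils and young monocytes that withholds metal ions from microbes and, once released, acts as a danger signal through TLR4. Several members leave the cell by a route that needs no signal peptide, and receptors named for released S100 proteins include Ager (RAGE), Cd36, Bsg and Alcam.

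Annotated genes held 33671556, 47764593 and 59332546 expected counts in replicates 1, 2 and 3, where an expected count is the number of reads that the authors' software assigned to a gene. A gene at 0 counts could have had up to 3 counts, which is 0.0891, 0.0628 and 0.0506 CPM (counts scaled to the library's total), for counting error only. The cell type matched its markers: all 12 macrophage markers lay above the reference defined below, with a median of 402 TPM (counts divided by transcript length and scaled to the same total in each library). Of markers of other cells, none of the 8 fibroblast, 5 T and NK, 4 B or 5 erythroid genes reached the mean of 0.1 TPM needed for a test, and 5 of 6 dendritic cell genes were tested and lay below the reference. Of 4 keratinocyte genes 1 was tested, Krt10, and it lay below.

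All 9 genes lie on chromosome 3 (mm10, GENCODE M21), where 14 of the 17 annotated mouse S100 genes are found. From the first base of S100a1 (chr3:90511034-90514392, minus strand) to the last base of S100a9 (chr3:90692632-90695721, minus strand) the first cluster spanned 185 kb, and 13 protein-coding genes are annotated in it, of which 1, Gm42674, is not an S100 gene. S100a13 (chr3:90514435-90524581), S100a3 (chr3:90560578-90602702), S100a4 (chr3:90603771-90606045), S100a6 (chr3:90612882-90624181) and S100a8 (chr3:90668978-90670035) sit inside it on the plus strand. S100a11 (chr3:93520488-93526287) and S100a10 (chr3:93555080-93564643), also on the plus strand, form a second group 2.82 Mb further on. None of the 60 protein-coding genes annotated between S100a9 and S100a11 averaged 1 TPM or more. The genes in the first cluster did not share a level: S100a1 at 106 TPM and S100a3 at 0.010 TPM lie 46.2 kb apart, start to start. That S100a3 start belongs to S100a3-203, which is not annotated as protein-coding. The protein-coding S100a3 transcripts start further away, at chr3:90584659 or beyond.

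**Figure D1:**
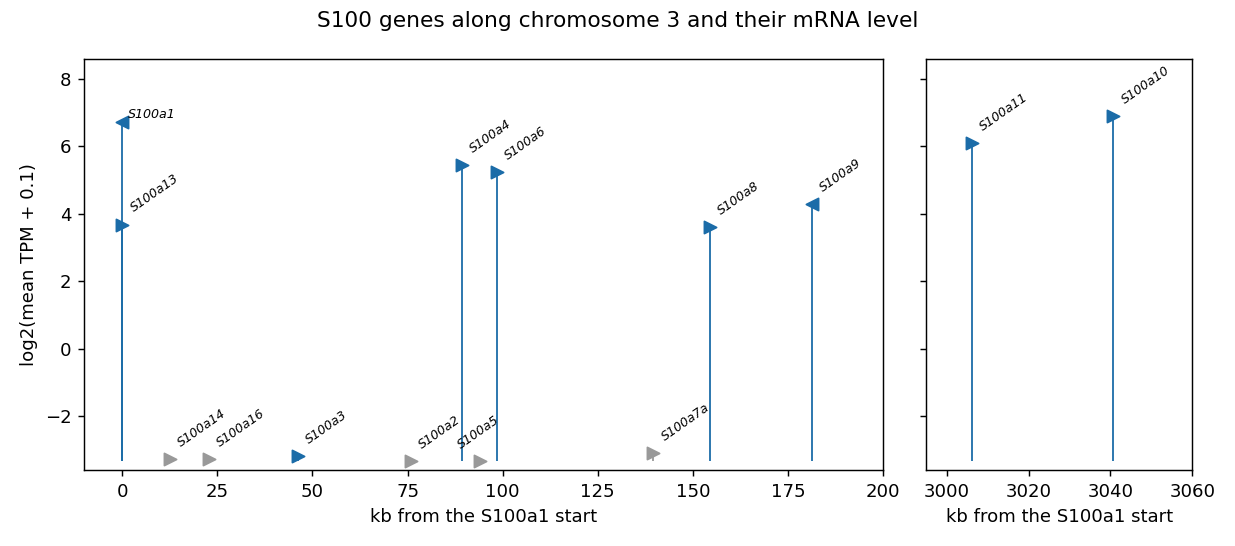
Mean level of the 14 S100 genes of chromosome 3, as log2(mean TPM + 0.1), against the distance of each annotated start from the S100a1 start in kb; arrowheads point along the strand, blue marks the 9 genes described and grey the 5 other S100 genes. Genes near the top and genes at the floor stand next to each other in the first cluster, and S100a11 and S100a10, about 3006 and 3041 kb away, are both high.

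Promoter sequence is shown for 4 genes. S100a8 and S100a9 were both lowest in replicate 2, though neither varied beyond genes of its level in the test given below. S100a4 varied most of the members between libraries, and the window of S100a1 overlaps that of S100a13. The windows run from 250 bases before to 50 bases after the start given by RefSeq (GRCm38.p6, which has the coordinates of mm10). They are written 5′ to 3′ on the strand of the gene. Capitals mark TATAAA, the core of the TATA box that places the start of transcription, in S100a8 (chr3:90668821-90669120, plus strand), S100a9 (chr3:90695672-90695971, minus strand) and S100a4 (chr3:90603520-90603819, plus strand). In S100a1 (chr3:90514281-90514580, minus strand) capitals mark the 204 bases that are also in the S100a13 window (chr3:90514185-90514484, plus strand).
S100a8: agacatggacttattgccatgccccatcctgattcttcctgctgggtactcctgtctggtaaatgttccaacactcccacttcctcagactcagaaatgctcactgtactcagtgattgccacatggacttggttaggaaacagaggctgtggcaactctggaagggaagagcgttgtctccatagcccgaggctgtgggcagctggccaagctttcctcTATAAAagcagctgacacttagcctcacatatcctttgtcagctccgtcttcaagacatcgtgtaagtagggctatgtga
S100a9: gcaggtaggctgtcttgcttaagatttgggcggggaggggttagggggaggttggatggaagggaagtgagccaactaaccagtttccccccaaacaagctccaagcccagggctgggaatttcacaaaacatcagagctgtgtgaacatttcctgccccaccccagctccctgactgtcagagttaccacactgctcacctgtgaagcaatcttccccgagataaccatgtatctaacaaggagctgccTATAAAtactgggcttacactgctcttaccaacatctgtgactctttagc
S100a4: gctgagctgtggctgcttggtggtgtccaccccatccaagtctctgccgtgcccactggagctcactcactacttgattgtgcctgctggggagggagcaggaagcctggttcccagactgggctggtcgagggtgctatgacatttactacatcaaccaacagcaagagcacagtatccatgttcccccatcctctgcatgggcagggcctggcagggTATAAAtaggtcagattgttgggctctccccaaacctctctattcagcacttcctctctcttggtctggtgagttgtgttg
S100a1: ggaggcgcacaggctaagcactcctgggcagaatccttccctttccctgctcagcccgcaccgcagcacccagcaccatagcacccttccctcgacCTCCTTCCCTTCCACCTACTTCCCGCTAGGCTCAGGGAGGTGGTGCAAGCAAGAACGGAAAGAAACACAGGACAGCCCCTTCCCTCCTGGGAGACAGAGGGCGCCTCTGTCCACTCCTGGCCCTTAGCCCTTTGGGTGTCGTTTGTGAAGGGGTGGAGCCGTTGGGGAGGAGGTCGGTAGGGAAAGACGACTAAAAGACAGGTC

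TATAAA began 30 bases before the RefSeq start of S100a8 and 31 bases before that of S100a4. Of all 32851 RefSeq windows, 1.99% have it on the given strand beginning 20 to 40 bases before the start. In GENCODE M21 the S100a8 gene begins earlier, at chr3:90668978, upstream of this TATAAA. The distance for S100a8 therefore holds for the RefSeq start only. In S100a9 the same letters began at the RefSeq start itself. S100a9-202 is annotated to start there (chr3:90695721). S100a9-201, which carried 86.2% of the gene's TPM, starts further downstream, at chr3:90695711. The windows of S100a1, S100a13, S100a6 and S100a11 held no TATAAA on either strand, and 13.6% of all windows do. The S100a6 window holds the annotated start of the transcript S100a6-201 (chr3:90612882). It does not reach that of S100a6-203 (chr3:90613305), which carried 65.6% of the gene's TPM, so sequence around that start was not searched. The S100a1, S100a13 and S100a11 windows were rich in G and C, at 61.0%, 59.3% and 61.7% against a median of 52.7%, and held 11, 14 and 15 CG dinucleotides against a median of 7. TTNNGNAA, letters in the style of a C/EBP site and present in 40.7% of all windows, occurred 1 time in the S100a8 window, 2 times in that of S100a9 and 1 time in each of 2 windows of S100a3, the member at the floor. S100a11 held TGANTCA, the AP-1 motif (7.81% of windows), 2 times and the GC box GGGCGG (35.7% of windows) 3 times. The kappaB motif, searched as 3 G, 2 of any base, 3 T and 2 C and found in 1.63% of windows, was in no window of the members. All motifs were searched on both strands, S100a10 had no window, and a match is a description of letters only.

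Of the 9 genes, 8 reached a mean of 0.1 TPM and were tested, and 6 of these 8 lay above the reference. As reference served the median level of the 8747 protein-coding genes that averaged 1 TPM or more, which stood at 7.38, 6.08 and 6.21 TPM in replicates 1, 2 and 3. A gene was called above it when the log2 difference was at least 1 and the adjusted p was below 0.05 (limma one-sample moderated test, Benjamini-Hochberg over 13327 genes). By that rule 20.5% of all tested genes lay above and 50.6% below. None of the 8 members lay below, and S100a8 and S100a13 had no call. The median log2 difference was 2.45 over the 9 genes, S100a3 included, and -1.06 over all tested genes. The members were chosen with earlier results of these data known. They leave out the 8 other annotated S100 genes, none of which reached a mean of 0.1 TPM. These counts and medians therefore describe the chosen genes and not the S100 family. Summed, the 9 genes held 544, 358 and 352 TPM, or 0.204%, 0.163% and 0.158% of all protein-coding TPM.

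**Figure D2:**
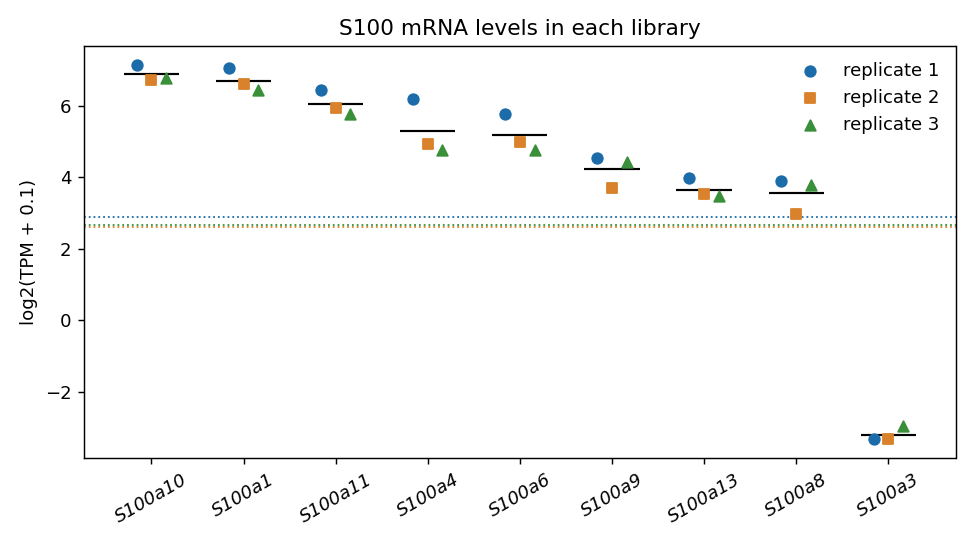
Level of each of the 9 S100 genes as log2(TPM + 0.1), 1 point per library, with the mean of the 3 libraries as a bar and each library's reference as a dotted line in that library's colour. S100a10, S100a1 and S100a11 stand in the same order in each library, the points of S100a4 and S100a6 spread most to the top in replicate 1, and S100a3 is at the floor.

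Among the partners of annexins, S100a10 had the highest level of all 9 genes. S100a10 (p11) is the member that no longer needs calcium, and it joins annexin A2 at the plasma membrane. It was at 142, 105 and 111 TPM in replicates 1, 2 and 3, or 119 ± 20.2 TPM (SD, n = 3), highest in replicate 1 and close in the other libraries. This placed it 4.16 ± 0.08 above the reference on the log2 scale (adjusted p = 3.2e-05, limma), above 96.3% of the 8747 reference genes. Anxa2, its partner, was at 138, 112 and 124 TPM. The log2 ratio of S100a10 to Anxa2 was 0.04, -0.09 and -0.16, with a mean of -0.07 ± 0.10, so the sign differed between libraries and no difference beyond the spread was seen in TPM (exact sign-flip test, p = 0.50). With counts per kilobase of full transcript length in place of TPM, a scale tried after the data were seen, the mean log2 ratio was -0.39.

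S100a11 (calgizzarin), which binds annexin A1, followed S100a1 in level at 87.5, 61.2 and 54.5 TPM, or 67.7 ± 17.4 TPM (SD, n = 3), again highest in replicate 1. It was 3.32 ± 0.22 above the reference on the log2 scale (adjusted p = 6.3e-05, limma). Anxa1 was higher in every library, at 197, 139 and 149 TPM. The log2 ratio of S100a11 to Anxa1 was -1.17, -1.18 and -1.45, a level 2.41-fold lower for S100a11 in TPM, and the mean log2 ratio was -1.27 in TPM and -1.85 with counts per full length. The exact sign-flip test gave p = 0.25, the smallest that 3 libraries allow. S100a11 has 5 processed pseudogenes of at least 90% identity over 100 or more bases. The closest, Gm12854 (99.0% over 297 bases), was given 5.38, 0 and 6.59 expected counts beside 1439, 1736 and 1883 for S100a11, and the other 4 had none, and how reads were split among these near copies is uncertain.

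S100a1, best known from heart and skeletal muscle where it binds calcium-handling proteins, held the second place among the 9 genes. Its level was 133, 97.3 and 86.3 TPM, or 106 ± 24.6 TPM (SD, n = 3), highest in replicate 1, and rested on 3482, 4265 and 4601 expected counts. It was 3.97 ± 0.19 above the reference on the log2 scale (adjusted p = 3.9e-05, limma), above 95.9% of the reference genes. S100a13, which takes part in the export of Fgf1 and Il1a, starts 43 bases from S100a1 on the opposite strand. It was at 15.7, 11.5 and 11.0 TPM, or 12.7 ± 2.59 TPM (SD, n = 3), and the libraries had the same order as for S100a1. Its log2 difference from the reference, 0.93 ± 0.13, had an adjusted p of 0.00072 by limma but missed the minimum of 1, and it was -0.10 with a reference of genes of at least 5 TPM.

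The genes of this divergent pair differed in level. The log2 ratio of S100a13 to S100a1 was -3.08, -3.07 and -2.96, or -3.04 ± 0.07, which is 8.21-fold lower for S100a13 in TPM and the same way in all 3 libraries (exact sign-flip p = 0.25). It is not stated whether reads were counted by strand. No annotated gene overlaps S100a1 or S100a13. Of the proteins S100a13 helps to export, Il1a was at 605, 482 and 713 TPM and Fgf1 at 0.06, 0.11 and 0.43 TPM, so one was far above the reference and the other below it.

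S100a4 and S100a6, which bind cytoskeletal and ubiquitin-ligase partners, differed most in level between replicate 1 and the other libraries. S100a4 (metastasin) binds the heavy chain of non-muscle myosin, Myh9. It was at 72.9, 30.6 and 27.2 TPM, or 43.5 ± 25.5 TPM (SD, n = 3), so replicate 1 stood apart from the other libraries. It was 2.57 ± 0.63 above the reference on the log2 scale (adjusted p = 0.0016, limma). S100a6 (calcyclin), which binds Cacybp, was at 54.3, 32.0 and 27.0 TPM, or 37.8 ± 14.5 TPM (SD, n = 3), with replicate 1 highest again. It was 2.45 ± 0.38 above the reference on the log2 scale (adjusted p = 0.00045, limma).

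The ratios to their partners followed these differences. S100a6 was above Cacybp in 3 of 3 libraries, with log2 ratios of 1.83, 1.43 and 1.30, a mean 2.87-fold difference (exact sign-flip p = 0.25). Cacybp itself was at 15.2, 11.8 and 10.9 TPM, with no call against the reference. S100a4 was above Myh9 in replicate 1 and below it in replicates 2 and 3, with log2 ratios of 0.66, -0.56 and -1.11 (exact sign-flip p = 0.75). The mean log2 ratio was -0.34 in TPM and -1.11 with counts per full length. Gm42674, a protein-coding model that overlaps S100a4 on the same strand and matches 302 bases of it exactly, was given 0 counts in all 3 libraries, and reads from the stretch they share were assigned to S100a4.

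S100a9 lay above the reference and its calprotectin partner S100a8 had no call. S100a9 was at 23.2, 13.0 and 21.6 TPM, or 19.3 ± 5.51 TPM (SD, n = 3), and S100a8 at 15.0, 7.77 and 13.8 TPM, or 12.2 ± 3.86 TPM (SD, n = 3). Replicate 2 was the lowest library for both. S100a9 was 1.50 ± 0.37 above the reference on the log2 scale (adjusted p = 0.0018, limma). The call was lost in the second quantification (0.94) and with a reference of genes of at least 5 TPM (0.47). In these settings Anxa2 also fell, from 4.23 to 3.67 and 3.20. After centring on the median gene, the log2 ratio of S100a9 between the 2 quantifications was only -0.10. S100a8 was 0.83 ± 0.42 above it (adjusted p = 0.017, limma), under the minimum of 1, and at -0.20 with the reference of at least 5 TPM. The log2 ratio of S100a9 to S100a8 kept to 0.63, 0.73 and 0.64, or 0.67 ± 0.05, which is 1.59-fold more S100a9 in 3 of 3 libraries (exact sign-flip p = 0.25). The SD of the ratio was smaller than that of either gene against the reference.

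Markers of neutrophils, where calprotectin is most abundant, were also measured. Of 15 neutrophil genes, 10 were tested, of which 1 lay above the reference, 7 below and 2 (Lcn2 and Mmp8) had no call. Their summed level was 26.6, 23.3 and 29.8 TPM, lowest in replicate 2 and highest in replicate 3. Csf3r, the receptor for G-CSF, gave 13.5, 12.8 and 14.4 TPM of it. The granule genes Ngp (2.40, 2.54 and 4.14 TPM) and Ltf (0.62, 0.55 and 1.62 TPM) were highest in replicate 3, and Ly6g, which defines neutrophils, had 0 counts in 3 of 3 libraries. In TPM, S100a8 and S100a9 were instead highest in replicate 1. In CPM, Csf3r, Ngp, Ltf and Mpo were lowest in replicate 1, and Lcn2, Mmp8, Mmp9 and Prtn3 in replicate 2. The part of neutrophils in the levels of S100a8 and S100a9 was not tested. By the distance between centred log2 levels over the 3 libraries, the genes most like S100a9 among 8746 were Ggct, Morn2 and Pdcd2l, with S100a8 at rank 7. For S100a8 they were Coa7, Ggct and Morn2, with S100a9 at rank 4. With 3 libraries this likeness is a description only.

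S100a3, a gene known from the hair cuticle, was the member without a measurable level. It had 0, 0 and 1 expected counts, where 3 counts would be 0.0404, 0.0250 and 0.0874 TPM. Its transcripts share stretches of at least 100 bases at 90% identity or more with 216 other genes, of which 150 had at least 10 counts in some library, so how reads of such stretches were assigned is uncertain. The 8 other S100 genes (S100a2, S100a5, S100a7a, S100a14, S100a16, S100b, S100g and S100z) resembled S100a3: none had more than 3 counts in any library, and 4 were at 0 TPM in all 3. Levels of these genes were not detectable at this depth.

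Set in order of mean TPM, the members were S100a10, S100a1, S100a11, S100a4, S100a6, S100a9, S100a13, S100a8 and S100a3. The first 3 made up 29.0 ± 2.67%, 25.4 ± 1.54% and 16.2 ± 0.82% of the summed TPM (SD, n = 3). Neighbours were held to differ when the within-library ratio had 1 sign in all 3 libraries and a mean beyond 2 SD. S100a1 over S100a11 passed, at a log2 ratio of 0.65 ± 0.03, as did S100a8 over S100a3. The other 6 neighbours did not pass. Their mean log2 ratios ran from 0.10 ± 0.44 (S100a13 over S100a8) to 0.95 ± 0.54 (S100a6 over S100a9). S100a6 over S100a9 and S100a11 over S100a4 (0.76 ± 0.43) had 1 sign in all 3 libraries but missed 2 SD. The same held for S100a9 over S100a13 (0.57 ± 0.40) and S100a10 over S100a1 (0.19 ± 0.15). S100a4 and S100a6 exchanged places in replicate 2, and S100a13 and S100a8 in replicate 3.

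**Figure D3:**
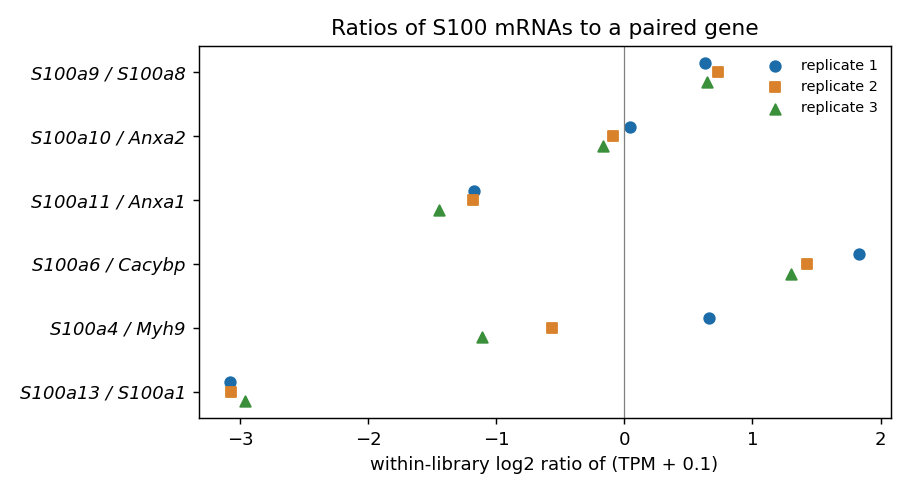
Within-library log2 ratio of TPM + 0.1 for 6 pairs named in the text, 1 point per library, with 0 as equal levels. The points of S100a9 to S100a8 and of S100a13 to S100a1 lie close together, while S100a4 to Myh9 runs from -1.11 to 0.66.

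S100a4 was the member whose counts varied more between libraries than genes of its level did. This was tested with edgeR's goodness of fit to the trended dispersion, on counts scaled by TMM, over 12330 genes with at least 10 counts in each library, of which 2.28% misfitted. Of the 8 members, 1 misfitted, S100a4 (adjusted p = 0.00091, Benjamini-Hochberg), and 3 had an unadjusted p below 0.05, beside 723 of all 12330 genes. Its scaled level was 32.3, 17.7 and 15.6 CPM, so replicate 1 was 0.96 (log2) above the mean of the other libraries. The SD of its log2 CPM was above that of 95.2% of genes. Without replicate 1 no member misfitted, beside 162 of 13144 genes tested.

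Other members varied less or not beyond the trend. S100a6 was at 30.2, 22.1 and 18.1 CPM, again highest in replicate 1, with an adjusted goodness-of-fit p of 0.21 by edgeR. S100a8 (6.35, 4.32 and 7.57 CPM) and S100a9 (10.9, 7.92 and 13.0 CPM) were lowest in replicate 2 and highest in replicate 3, with adjusted p of 1 and 0.73 by edgeR. S100a10 was the steadiest, at 108, 100.4 and 104 CPM, and its SD was above that of only 18.4% of genes. Replicate 1, where S100a4 and S100a6 were highest, had the fewest counts, and its effective lengths were shorter, 263 bases for S100a4 against 287 and 288 in replicates 2 and 3. The 8 fibroblast markers, genes of a cell type that also expresses S100a4 and S100a6, summed to 0.19, 0.18 and 0.24 TPM, and each was too low for a test. The part of depth and fragment length in the difference was not tested.

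**Figure D4:**
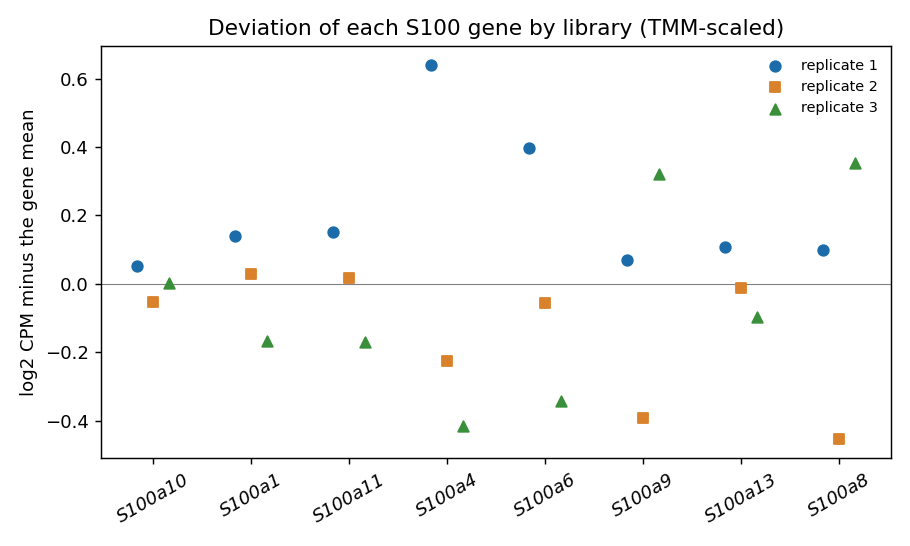
Deviation of log2 CPM (TMM-scaled) from the gene's own mean for the 8 tested S100 genes, 1 point per library. Replicate 1 is high for S100a4 and S100a6, and replicate 2 is low for S100a8 and S100a9, while the 3 points of S100a10 lie together.

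The transcript tables showed a single main mRNA for most members. S100a11 and S100a13 have 1 annotated transcript, S100a10-201 and S100a4-201 each held 99.9% of their gene's TPM on average, and S100a1-201 held 97.8 ± 0.64% (SD, n = 3). S100a6 was divided, with S100a6-203 at 61.6%, 67.0% and 68.3% and S100a6-201, the other protein-coding form, at 37.9%, 33.0% and 31.1%. S100a9-202, which starts upstream of S100a9-201, held 15.5%, 16.3% and 9.60% of S100a9. Transcripts annotated as retaining an intron held small shares, which were higher in the second set of transcript values deposited for the same reads. For S100a8 the share was 0.535%, 0.644% and 1.67% in the first set and 2.07%, 4.67% and 3.60% in the second. For S100a6 it was 0.516%, 0% and 0.444% in the first and 0.932%, 0.397% and 1.44% in the second. For S100a10 it was 0.0632%, 0.0286% and 0.298% in the first and 0.125%, 0.124% and 0.469% in the second. Few reads lay behind these shares. In the first set they were 1.23, 1.27 and 7.75 expected counts for S100a8 and 1.86, 0 and 1.88 for S100a6. For S100a10 they were 2.12, 1.08 and 14.95. Most are under the floor of 3 counts, so differences between libraries or sets are not resolved.

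Gene levels summed from the second set were compared with those of the first. After the median log2 ratio of each library was removed, none of the 8 members differed between the quantifications (limma, adjusted p below 0.05 and log2 ratio of at least 1), beside 2.72% of 9481 genes higher and 1.93% lower in the second. The centred log2 ratios of the members lay from -0.07 to -0.17. Without centring all 8 were called lower in the second, with log2 ratios of -1.33 to -1.43. The median gene of the 9481 was itself at -1.02, -1.22 and -1.52 in replicates 1, 2 and 3, so the uncentred calls mostly repeat a shift of the whole table. The share of all genes called without centring is not given. The coding sequences of the 9 genes are 270 to 483 bases long and share 34.7% to 59.5% of bases between pairs, with S100a4 and S100a6 the closest.

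The proteins that S100 proteins bind were mostly expressed. Of 18 partner genes 16 were tested: 12 lay above the reference, 2 below and 2 had no call (Cacybp and Trp53), with a list median of 30.8 TPM. Il1a at 600.1 ± 116 TPM, Anxa5 at 253 ± 16.4 TPM, the giant scaffold Ahnak at 205 ± 10.8 TPM and Anxa1 at 162 ± 31.1 TPM were the most abundant (SD, n = 3). The partners below were S100pbp at 1.88 ± 0.08 TPM and Fgf1, and Kcnk3 and Syt1 were at 0 TPM. Among 9 receptors, 7 were tested: 5 lay above, 0 below, and Cd69 and Scarb1 had no call. Cd68, a macrophage marker on 2 of the lists, was at 599 TPM, the scavenger receptor Cd36 at 101 TPM, basigin (Bsg) at 64.3 TPM and Alcam at 50.3 TPM. Tlr4, the receptor of both lipid A and calprotectin, was at 19.6, 13.0 and 13.0 TPM. Ager, which encodes RAGE, was at 0.05, 0 and 0.01 TPM, and Mcam at 0, 0.03 and 0.02 TPM, both too low for a test.

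Of 15 other EF-hand genes, all tested, 12 lay above the reference, Gca (grancalcin) lay below and 2 had no call, with a median of 33.6 TPM beside 37.8 TPM over the 9 members. Lcp1 (plastin) at 249 TPM, Efhd2 at 147 TPM and the calmodulin gene Calm2 at 144 TPM were among the most abundant of that list. Of 10 genes known to act on calprotectin transcription or its inducers, 9 were tested: 6 lay above, 2 below and Cebpa had no call. Spi1 (PU.1), Il10, Rela and Cebpb were at 75.1, 62.8, 41.1 and 33.1 TPM. Cebpd and Zbtb16 lay below the reference, and Cebpd was at 3.01, 2.27 and 1.11 TPM. Cebpd and Il10 misfitted the edgeR trend, and their library orders (Il10 at 47.9, 65.4 and 75.1 TPM) were not those of S100a8 and S100a9.

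**Figure D5:**
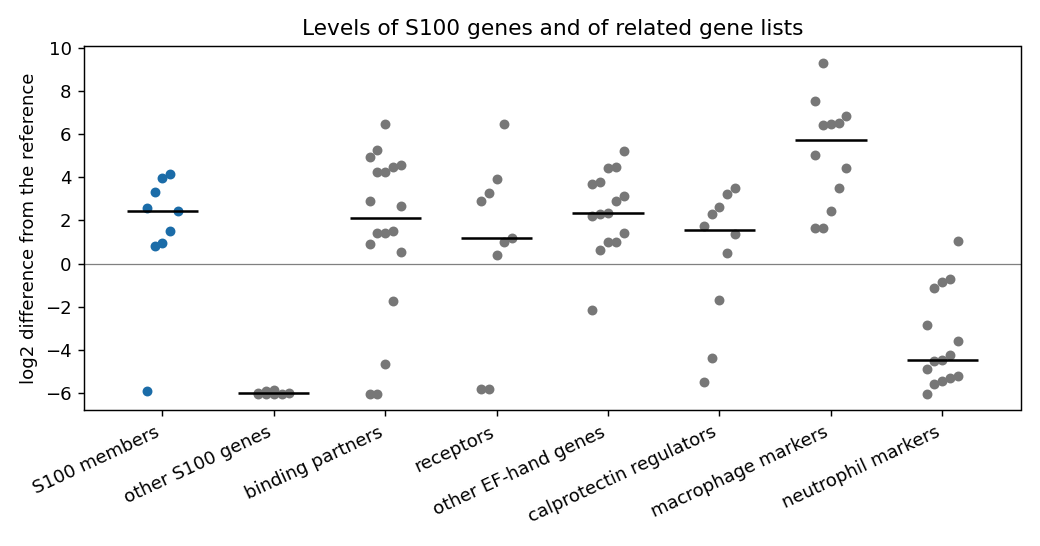
Mean log2 difference from the reference for each gene of the S100 members, the 8 other S100 genes and 6 lists, 1 point per gene with the list's median as a bar; genes too low for a test are drawn at their fitted value near -6. The S100 members other than S100a3 lie above 0 (S100a8 and S100a13 fall below it with a reference of at least 5 TPM), as do the macrophage markers, and the 8 other S100 genes lie at the floor.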

How the data were processed

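Total RNA-seq of the cytosolic fraction of lipid A-treated macrophages was available as 3 libraries of 1 group, so no groups were compared. Per the file headers and the text files beside them, the authors deposited, for mm10 and GENCODE M21, gene and transcript tables of expected counts, TPM and FPKM (the first quantification), and transcript tables of estimated counts and TPM made directly from the reads (the second). The tools, their versions and strandedness are not given in the sources. Of 81881 entries per gene table, the 55536 annotated genes were used. Values of 115 symbols with more than 1 identifier were summed. Levels were tested with limma 3.58.1 on log2(TPM + 0.1), so a log2 difference understates that of low genes. Variation was tested with edgeR 4.0.16 on expected counts rounded to whole numbers. DESeq2 1.42.0 size factors, FPKM, other pseudocounts, filters and references, and leaving out each library were alternatives. Both fits were tested on simulated data. TPM divides by effective length, which for these short mRNAs is sensitive to fragment length. Ratios used an exact sign-flip test, whose smallest p with 3 libraries is 0.25. Promoter windows came from RefSeq (GRCm38.p6), which had one for 8 of 9 members. Motifs, near copies (BLAST 2.17.0) and coding identity (Biopython 1.88) were computed. Named genes were the 9 members, other S100 genes with a mean of at least 10 counts, the 4 highest of each list, the genes of pairs, partners and receptors below the reference, and the 3 genes most like S100a8 and S100a9. A few others were named after their values were seen. Some genes of the EF-hand list are not reported here by name. Members and lists were chosen with earlier results of these data known.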

Additional observations from a re-analysis of the deposited data

How the results depend on the processing

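Of the verdicts on alternatives, 270 were the same, 13 moved, 14 became stronger, 2 weaker and 3 reversed. Same meant an unchanged direction and side of the threshold, a value within its spread, or a similar count of members. Counts of 5, 7 or 8 members above the reference were held to be the same as 6, though single members crossed the threshold. The verdicts include those on Anxa1, Anxa2, Cacybp and Myh9, which are not members. The number of members above the reference ranged from 5 (second quantification, or a reference of genes of at least 5 TPM) to 8 (FPKM), and from 6 to 7 when each library was left out. Anxa2, which is not a member, shifted the same way. Its log2 difference was 4.23 in the main setting, 4.46 with FPKM, 3.67 in the second quantification and 3.20 with the reference of at least 5 TPM. The share of all genes called under these settings is not given. The reference of at least 5 TPM lowered the log2 difference of every gene by the same amount. With it, the log2 difference turned to -0.20 for S100a8, -0.10 for S100a13 and -0.10 for Cacybp. That of S100a9 was 0.47 and no longer called. S100a9 was at 0.94 in the second quantification. S100a8 was called without replicate 2 (1.09) and with FPKM (1.06), and S100a13 without replicate 3 (1.00) and with FPKM (1.16). The number of members misfitting the trend ranged from 0 to 1 when each library was left out, with 0 without replicate 1. Without centring, 8 members were called lower in the second quantification. The median log2 ratio of all compared genes was itself -1.02, -1.22 and -1.52 in replicates 1, 2 and 3. S100a6-203 held 61.1% in the second quantification and 65.6% in the first. With counts per kilobase of full length, an alternative chosen after seeing the data, the log2 ratio of S100a9 to S100a8 was 0.73, S100a1 to S100a11 0.88, S100a4 to S100a6 -0.25, S100a6 to Cacybp 1.23, S100a10 to Anxa2 -0.39, S100a11 to Anxa1 -1.85 and S100a4 to Myh9 -1.11. The cause of the changes with counts per full length was not tested. No paired analysis was possible because there is only 1 group. S100a3 had at most 1 count in a library in the first quantification. The part of depth and of stretches shared with other genes in this value was not tested.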
